A study of Mus musculus with 12 samples.

Results

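The genes described are 10 regulators of the passage from quiescence through the G1 phase of the cell cycle: the D-type cyclins Ccnd1, Ccnd2 and Ccnd3, the cyclin-dependent kinases Cdk4 and Cdk6, the Cip/Kip inhibitors Cdkn1a, Cdkn1b and Cdkn1c, and the INK4 inhibitors Cdkn2c and Cdkn2d. They were taken by gene symbol and role, with no threshold on values, from the 20792 genes listed for each library, and all 10 were found. D-type cyclins bind and activate CDK4 and CDK6, and the resulting kinases phosphorylate RB and its relatives, which releases E2F transcription factors and lets a cell enter S phase. INK4 proteins bind CDK4 and CDK6 themselves, whereas Cip/Kip proteins bind cyclin-CDK complexes and block above all the kinases that act at S phase entry. In mouse blood stem cells, p57, p27 and p18, the products of Cdkn1c, Cdkn1b and Cdkn2c, are known regulators of quiescence and self-renewal, and Cdk6 is known for its part in leaving quiescence.

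The study asked how a high-salt diet (HSD) changes blood cell progenitors and recovery from stroke. Hematopoietic stem and progenitor cells (HSPCs) were sorted from bone marrow of male wild-type mice as lineage-negative, CD127-, c-kit+, Sca-1+ cells, a gate that holds stem cells together with multipotent progenitors. The ND and HSD groups had received normal diet (ND) or HSD, given as salt-rich chow and salted drinking water, for 8 weeks from an age of 4 to 6 weeks and no surgery, and the ND ICH and HSD ICH groups were taken 7 days after intracerebral hemorrhage (ICH), modelled by injecting blood into the brain, following the same diets. All ICH mice were fed ND after the injury, so HSD ICH mice no longer received HSD in their last days. Each of the 4 groups had 3 libraries. Cells of several mice were pooled for each ND and HSD library, while pooling is not stated for the ICH groups, and no group had surgery without blood, so injury and surgery cannot be told apart. Replicate spread is that between these libraries.

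The values are read counts per gene relative to library size (CPM), scaled by the authors, and reads per gene were recovered from them. Reads in listed genes numbered 8678304 to 15469971 in the 6 libraries without ICH and 12286357 to 27491973 in the 6 after ICH. The number of listed genes at 0 was 1393 to 1755 per library in the groups without ICH and 2 to 29 in those taken after ICH, so ICH and this difference between library sets cannot be told apart. All 7 HSPC markers were detected in every library, with a summed level of 1303 to 1599 CPM in 11 libraries and 878 CPM in HSD ICH replicate 3. The sum of 14 macrophage markers was high in ND replicate 1 (519 CPM) and HSD replicate 2 (931 CPM) and ran from 80.9 to 199 CPM elsewhere. Erythroid markers were high in the same libraries, at 332 and 272 CPM against 28.6 to 132 CPM elsewhere. T or NK cell markers summed to 66.1 CPM in HSD ICH replicate 3, against 23.5 to 37.0 CPM elsewhere. Neutrophil markers summed to 103 CPM in ND replicate 3, against 37.0 to 78.9 CPM elsewhere. HSD ICH replicate 3, ND replicate 1 and HSD replicate 2 are named below where a result rests on them. In bulk RNA, fewer cells of a type and less RNA per cell cannot be told apart.

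Levels of 4 members separated the diets completely without or after ICH, and 3 of them are shown with sequence for that reason: Cdkn2c and Cdkn2d, which were both higher with HSD, and Cdk4. The other was Cdkn1c. Each run covers 250 bases before to 50 after a RefSeq transcription start in GRCm38.p6, written 5′ to 3′ on the strand of the gene. Capitals mark GC boxes (GGGCGG or its complement CCGCCC) for Cdkn2c and Cdkn2d, and E-boxes (CACGTG, the same on both strands) for Cdk4, whose window also held 3 GC boxes that are not marked.
Cdkn2c, chr4:109666707-109667006, minus strand: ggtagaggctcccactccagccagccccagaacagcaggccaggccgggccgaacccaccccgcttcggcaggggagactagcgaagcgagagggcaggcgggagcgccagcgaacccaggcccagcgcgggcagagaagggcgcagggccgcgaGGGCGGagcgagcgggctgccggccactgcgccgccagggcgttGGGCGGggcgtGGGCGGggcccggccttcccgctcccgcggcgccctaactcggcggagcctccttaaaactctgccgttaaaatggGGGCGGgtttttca
Cdkn2d, chr9:21291160-21291459, minus strand: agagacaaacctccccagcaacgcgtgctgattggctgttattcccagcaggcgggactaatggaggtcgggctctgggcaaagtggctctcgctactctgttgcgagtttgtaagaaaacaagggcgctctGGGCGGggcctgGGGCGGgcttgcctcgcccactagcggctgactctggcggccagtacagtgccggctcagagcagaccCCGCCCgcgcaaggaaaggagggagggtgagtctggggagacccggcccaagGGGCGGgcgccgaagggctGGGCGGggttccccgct
Cdk4, chr10:127063285-127063584, plus strand: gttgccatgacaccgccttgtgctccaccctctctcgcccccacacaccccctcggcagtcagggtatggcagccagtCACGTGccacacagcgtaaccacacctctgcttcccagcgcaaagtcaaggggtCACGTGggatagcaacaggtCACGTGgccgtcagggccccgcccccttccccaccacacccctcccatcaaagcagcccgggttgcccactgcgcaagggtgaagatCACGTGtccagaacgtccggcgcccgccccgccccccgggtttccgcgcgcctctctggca
The printed Cdkn2c window held 4 GC boxes and that of Cdkn2d held 5, and 4 or more occurred in 5.49% of 32851 promoter windows of the same length. A second RefSeq start of Cdkn2c, with its window at chr4:109665323-109665622, held 0 GC boxes and 1 E-box. The Cdk4 window held 4 E-boxes, a number reached in 0.0244% of windows. A p53 core and E2F sites were searched as well and are not described here. This share is thus taken from a search of several motifs in several windows. RefSeq windows were matched for 7 of the 10 genes, while Ccnd1, Ccnd2 and Cdkn1c are named only. These matches describe letters and were not related to the values that follow.

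Per kilobase of annotated exon, Cdk4 was the most abundant of the 10 transcripts at a mean of 41.0 CPM per kb over the 12 libraries, followed by Cdk6 at 27.8, Ccnd2 at 17.0, Cdkn1b at 12.1 and Ccnd3 at 10.1 CPM per kb. Ccnd1 at 4.16, Cdkn2d at 3.84 and Cdkn2c at 3.70 CPM per kb lay close together, and Cdkn1a at 1.64 and Cdkn1c at 0.860 CPM per kb were lowest. Each neighbour in this order kept its place in all 12 libraries except in 2 cases: Ccnd1 exceeded Cdkn2d in 8 of 12 libraries, and Cdkn2d exceeded Cdkn2c in 7 of 12, so these 3 were not separated. Before division by length Cdk6 led at a mean of 389.6 CPM, because its exons span 13.989 kb against 3.249 kb for Cdk4.

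Within the D cyclins, Ccnd2 made up 54.6% of the summed CPM per kb, Ccnd3 32.2% and Ccnd1 13.2% on average. Cdk4 made up 59.5% of the 2 kinases. Among the 5 inhibitors, Cdkn1b made up 54.6%, with 17.4% for Cdkn2d, 16.8% for Cdkn2c, 7.39% for Cdkn1a and 3.87% for Cdkn1c. HSPCs of all groups thus contained the same leading cyclin, kinase and inhibitor transcripts.

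**Figure D1:**
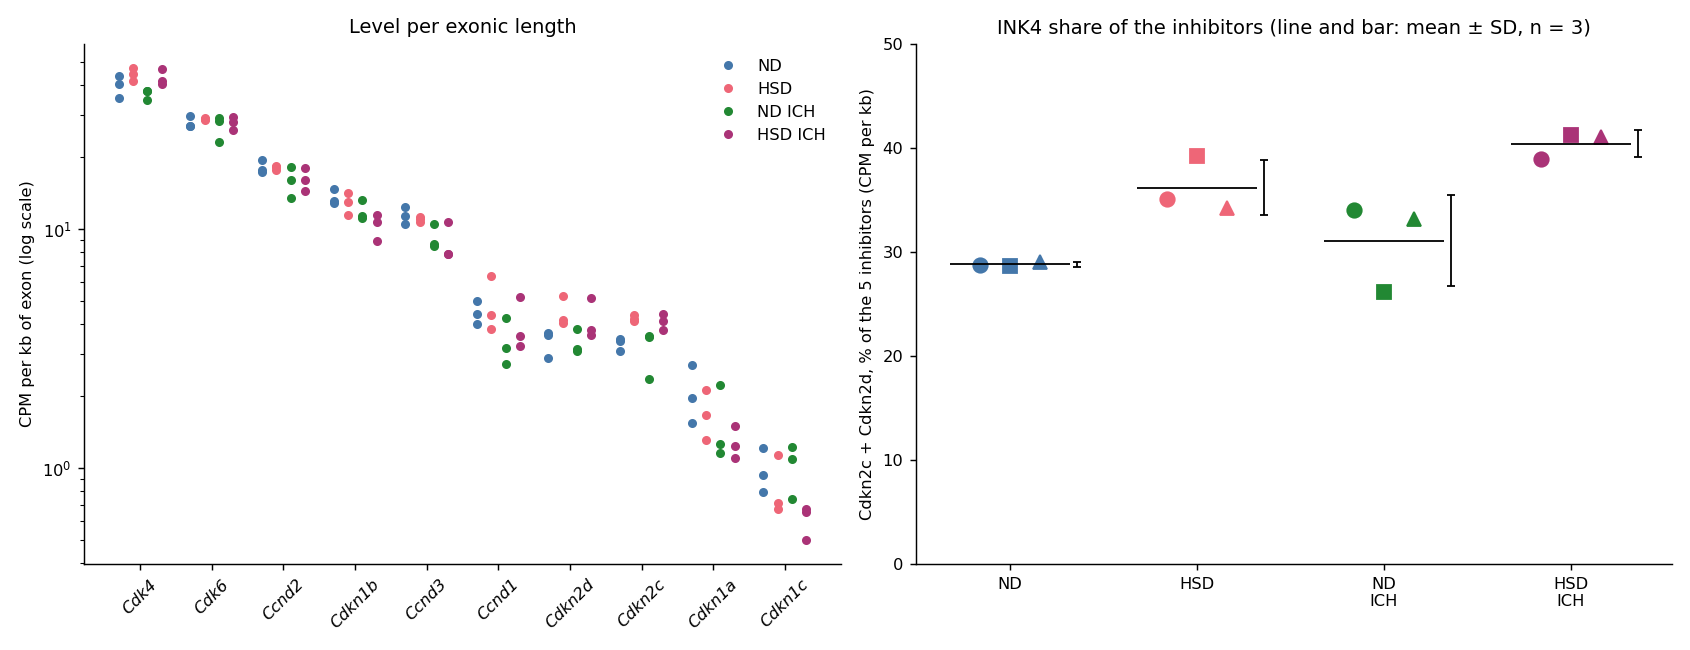
Left, level of each of the 10 genes in CPM per kb of exon on a log axis, 1 point per library colored by group, ordered by mean from Cdk4 at 41.0 to Cdkn1c at 0.860 CPM per kb. Right, summed CPM per kb of Cdkn2c and Cdkn2d as a percentage of the 5 inhibitors, with the mean and SD of 3 libraries; HSD libraries lay above ND libraries without ICH and after ICH.

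No member passed an adjusted p of 0.05 in any comparison by limma, by edgeR's quasi-likelihood test or by DESeq2. For HSD against ND without ICH, 0 of 10 members were called by limma, where 0.0774% of all 16787 genes tested were, and 1 member had an unadjusted p under 0.05 against 6.93% of all genes. The 2 members Cdkn2c and Cdkn2d had groups without overlap, against 12.8% of all genes. For HSD ICH against ND ICH, 0 of 10 members and 0% of 20079 genes were called, 1 member had an unadjusted p under 0.05 against 15.6% of genes, and 3 members, Cdk4, Cdkn1c and Cdkn2c, did not overlap, against 23.4% of genes. By edgeR's quasi-likelihood test 1 member had an unadjusted p under 0.05 in each diet comparison, and by DESeq2 none had. With only 10 members, these shares lie near the background.

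For ND ICH against ND, limma called 0 of 10 members where it called 16.7% of 19387 genes, and 2 members against 28.4% of genes had an unadjusted p under 0.05. For HSD ICH against HSD, it called 0 of 10 where it called 6.58% of 18082 genes, and again 2 members, against 21.5%, had an unadjusted p under 0.05. These members were all lower, whereas most calls over all genes were higher: 3.23% of genes after ND and 1.26% after HSD were called lower. An unadjusted p under 0.05 by limma with a lower level was found for 10.3% and 9.73% of genes. With a filter of CPM over 10 in 3 libraries, limma called 116 genes after ND and 44 after HSD. Groups did not overlap for 1 member after ND and 2 after HSD, against 33.4% and 28.7% of genes. By edgeR's quasi-likelihood test 2 members after ND and 1 after HSD had an unadjusted p under 0.05, and by DESeq2 2 and 0. The members were nonetheless mostly lower after ICH: the log2 fold change was negative for 9 of 10 after ND, with a median of −0.15, and for 10 of 10 after HSD, with a median of −0.21. Of all genes tested, 49.2% and 50.7% were lower. Among the 14587 genes with a mean of at least 1.75 CPM, the mean of Cdkn1c, 59.5% and 55.8% were lower. The 2 comparisons share no library, but both set libraries with 1393 to 1755 listed genes at 0 against libraries with 2 to 29. In neither can ICH and this difference between library sets be told apart. Single libraries moved these medians: after ND the median was −0.080, with 7 of 10 lower, without ND ICH replicate 2, and after HSD it was −0.10 without HSD replicate 2 and −0.13 without HSD ICH replicate 3, each with 9 of 10 lower. After ND, 8 of 10 were lower with DESeq2, RLE scaling or plain library totals.

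Whether the diet effect itself differed between ICH and no ICH was tested as an interaction over all 12 libraries. It called 0 of 10 members and 0% of 20393 genes, and no member had an unadjusted p under 0.05 by limma, edgeR or DESeq2, against 8.35% of all genes by limma. The 95% interval of the ratio of diet effects was narrowest for Cdk4, from 0.852 to 1.27, and widest for Cdkn1a, from 0.600 to 1.78.

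**Figure D2:**
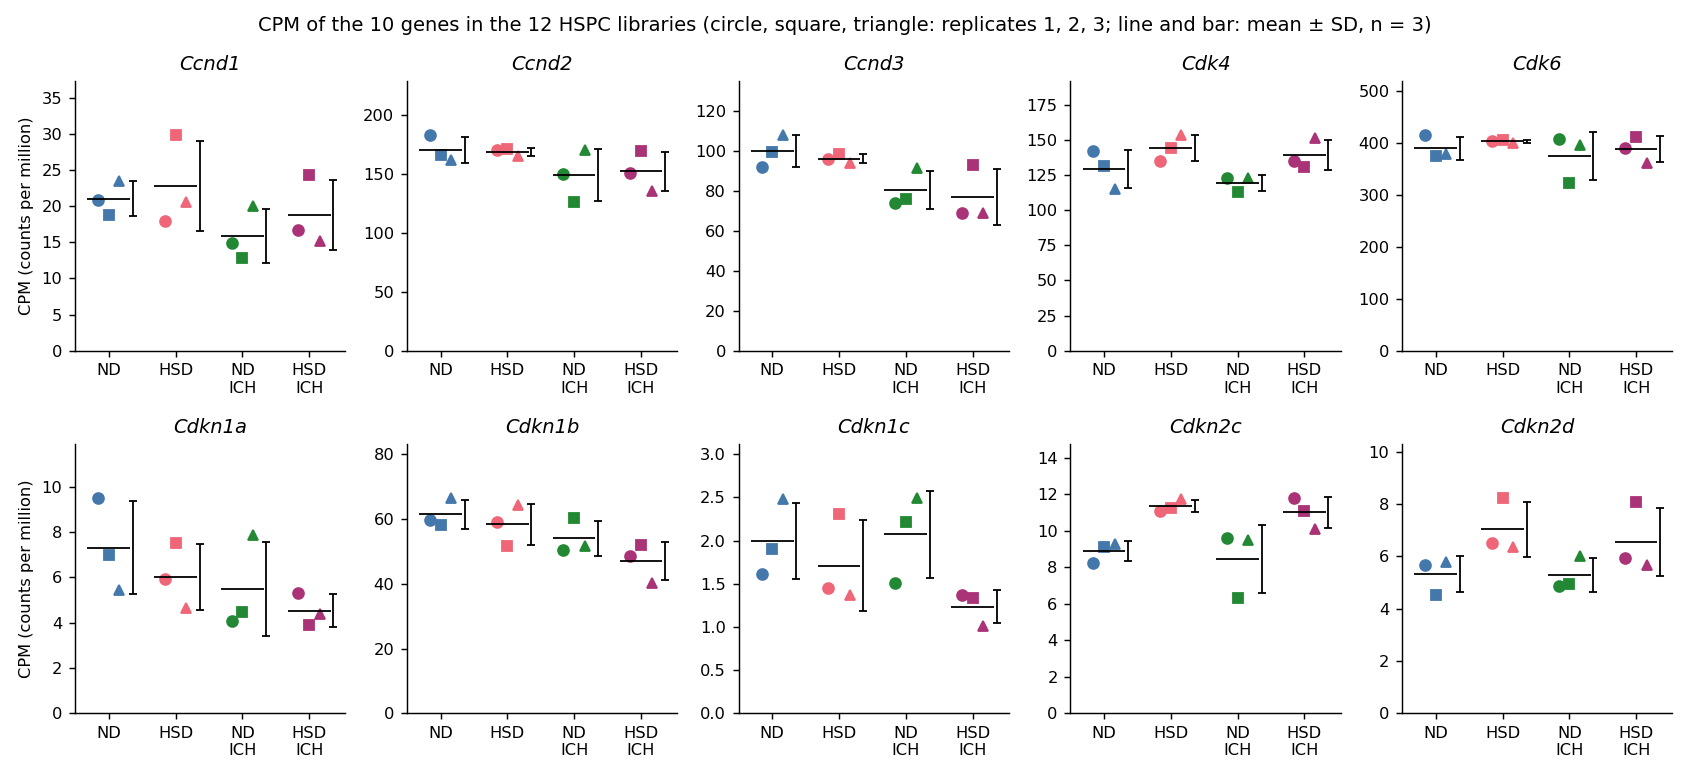
CPM of each of the 10 genes in the 12 libraries, with circles, squares and triangles for replicates 1, 2 and 3 and the mean and SD of 3 libraries per group; every axis starts at 0. Cdkn2c lay between 11.1 and 11.7 CPM in HSD and between 8.26 and 9.27 CPM in ND, and Ccnd3 lay between 92.3 and 108 CPM in ND and between 74.3 and 91.5 CPM in ND ICH.

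Among the D cyclins, Ccnd3 (ENSMUSG00000034165, GRCm38 chr17:47505051-47599691), a cyclin with known roles in lymphoid and erythroid cells, was lower after ICH on both diets. Its levels were 92.3, 99.7 and 108 CPM in ND, 96.2, 98.6 and 94.1 CPM in HSD, 74.3, 76.1 and 91.5 CPM in ND ICH, and 69.0, 93.4 and 69.1 CPM in HSD ICH. Every ICH library lay below every library of the same diet without ICH, although ND ICH replicate 3 and HSD ICH replicate 2 came within 1 CPM of them. After ND the mean was 80.6 ± 9.44 CPM against 100.1 ± 7.96 CPM without ICH (SD, n = 3 each), a log2 fold change of −0.31 ± 0.10 (SE) with an adjusted p of 0.0627 by limma. After HSD it was 77.2 ± 14.0 against 96.3 ± 2.22 CPM, a log2 fold change of −0.33 ± 0.13 with an adjusted p of 0.172. Neither difference passed the threshold, and leaving out single libraries kept both negative, from −0.41 to −0.26 after ND and from −0.48 to −0.26 after HSD.

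Between diets Ccnd3 overlapped, with 0.964-fold of the ND level in HSD (95% interval 0.858 to 1.08) and 0.952-fold after ICH (0.759 to 1.19). Its exons share 361 bases with those of Bysl on the opposite strand, which was listed at 27.9 to 40.4 CPM, and 417 bases of a pseudogene, Ccnd3-ps, were 96.6% identical to it. Library preparation was stranded, but whether reads were counted by strand is not stated.

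Ccnd1 (ENSMUSG00000070348, GRCm38 chr7:144929931-144939925), the cyclin most tied to growth factor signals, varied most between libraries of the 3 D cyclins. Its levels were 20.8, 18.7 and 23.5 CPM in ND, 18.0, 29.8 and 20.6 CPM in HSD, 14.9, 12.8 and 20.0 CPM in ND ICH, and 16.7, 24.3 and 15.2 CPM in HSD ICH. The highest value came from HSD replicate 2, the library with the highest sum of macrophage markers, and the part of these cells in it was not tested.

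The coefficient of variation of Ccnd1 within HSD was 27.3%, where counting error alone gives 6.25%. After ND, ICH libraries averaged 15.9 ± 3.70 against 21.0 ± 2.41 CPM, a log2 fold change of −0.41 ± 0.16 with an adjusted p of 0.124 by limma, and the groups overlapped. The HSD to ND difference without ICH, 0.09 on the log2 scale, became −0.12 without ND replicate 1 and HSD replicate 2. Ccnd1 shares 1100 exonic bases with LTO1 on the opposite strand, listed at 10.7 to 17.3 CPM, a level of the same order as its own.

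Ccnd2 (ENSMUSG00000000184, GRCm38 chr6:127125162-127152193), the leading D cyclin here, was measured at 162 to 183 CPM in ND, 165 to 172 CPM in HSD, 126 to 170 CPM in ND ICH and 136 to 169 CPM in HSD ICH. The diets gave nearly the same level without ICH, 0.993-fold in HSD with a 95% interval of 0.891 to 1.11. The interval after ICH was wider, 0.829 to 1.27. ICH libraries averaged 149.0 ± 22.0 against 170.5 ± 11.2 CPM after ND and 152 ± 16.8 against 169 ± 3.39 CPM after HSD, with adjusted p of 0.270 and 0.414 by limma and overlap in both.

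Of the kinases, Cdk4 (ENSMUSG00000006728, GRCm38 chr10:127063534-127067920) was somewhat higher with HSD. Its levels were 142, 131 and 115 CPM in ND, 135, 144 and 154 CPM in HSD, 123, 113 and 123 CPM in ND ICH, and 135, 131 and 151 CPM in HSD ICH. After ICH all 3 HSD libraries lay above all 3 ND libraries, with the highest in HSD ICH replicate 3, the library low in HSPC markers, whereas the groups overlapped without ICH. The log2 fold change was 0.22 ± 0.10 after ICH with an adjusted p of 0.341 by limma, and 0.16 ± 0.09 without ICH with an adjusted p of 0.766. Without HSD ICH replicate 3 the value after ICH was 0.15, and without ND replicate 3 that without ICH was 0.077. Cdk4 shares 641 exonic bases with Tspan31 on the opposite strand, listed at 21.7 to 33.8 CPM.

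Cdk6 (ENSMUSG00000040274, GRCm38 chr5:3341485-3531008) was the steadiest member. Its levels were 376 to 416 CPM in ND, 401 to 407 CPM in HSD, 323 to 408 CPM in ND ICH and 362 to 413 CPM in HSD ICH, with 3796 to 10010 reads per library. Within HSD its coefficient of variation was 0.700%, below the 1.47% that counting error gives. In the 4 comparisons its fold differences lay between 0.960 and 1.04. The narrowest interval, for HSD against ND without ICH, ran from 0.929 to 1.15, and the widest, for HSD ICH against ND ICH, from 0.848 to 1.27.

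**Figure D3:**
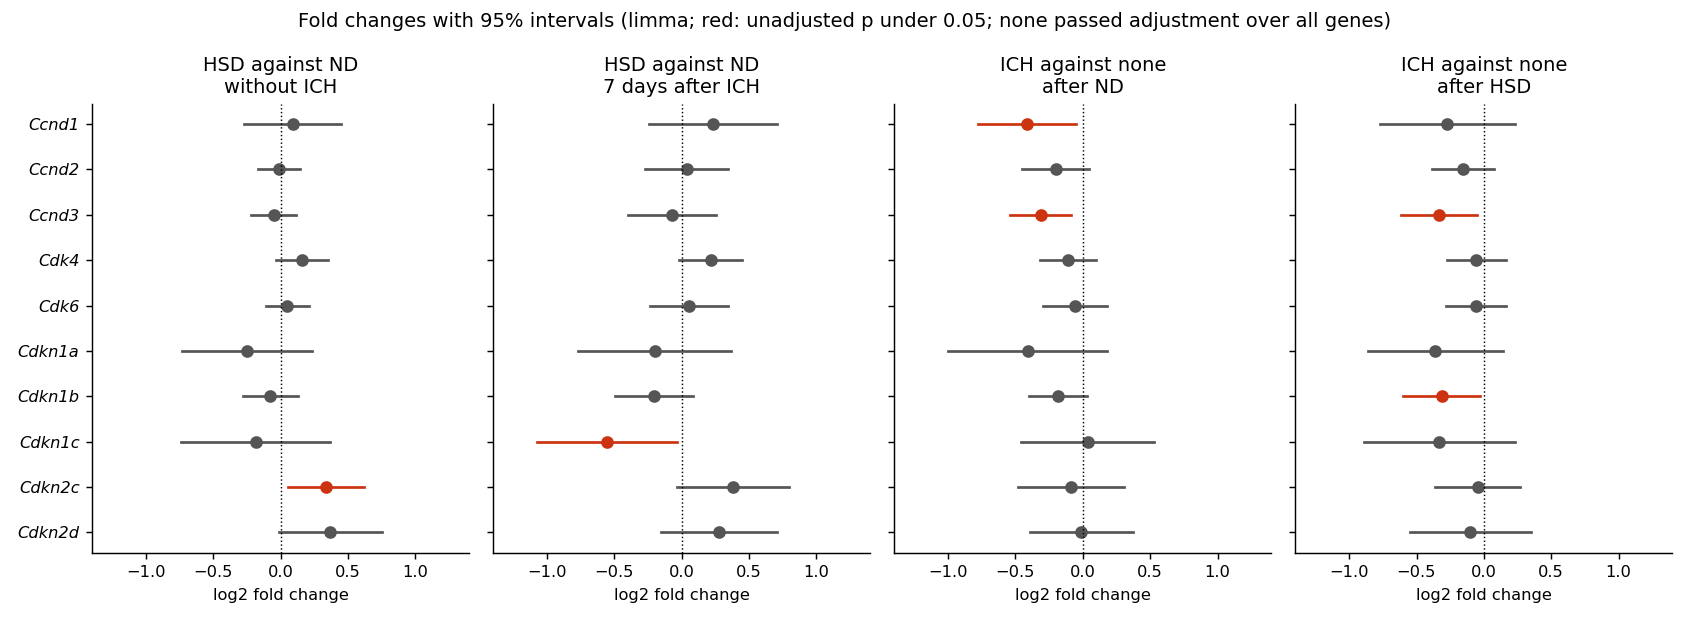
Log2 fold change of each member in 4 comparisons by limma on log2(CPM + 0.5), with 95% intervals of 3 against 3 libraries; red marks an unadjusted p under 0.05. Cdkn2c at 0.34 without ICH and Cdkn1c at −0.55 after ICH are the red points of the diet comparisons, Ccnd1 and Ccnd3 those of ICH after ND, and Ccnd3 and Cdkn1b those of ICH after HSD.

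The Cip/Kip inhibitors had lower means with HSD than with ND, without and after ICH, and none of these differences passed the threshold. Single libraries turned some of them: the log2 fold change of Cdkn1b without ICH was 0.0065 without HSD replicate 2, and that of Cdkn1a after ICH was 0.069 without ND ICH replicate 3. Cdkn1b (p27; ENSMUSG00000003031, GRCm38 chr6:134920401-134925513), the dominant inhibitor, was measured at 59.6, 58.1 and 66.5 CPM in ND, 58.9, 51.7 and 64.3 CPM in HSD, 50.3, 60.2 and 51.7 CPM in ND ICH, and 48.6, 52.0 and 40.3 CPM in HSD ICH. The lowest value was in HSD ICH replicate 3. ICH libraries averaged 47.0 ± 5.97 against 58.3 ± 6.32 CPM after HSD, a log2 fold change of −0.31 ± 0.13 with an adjusted p of 0.196 by limma. The groups overlapped, since HSD ICH replicate 2 lay just above HSD replicate 2, and the value was −0.21 without HSD ICH replicate 3. After ND the log2 fold change was −0.18 ± 0.10 with an adjusted p of 0.246.

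Cdkn1c (p57; ENSMUSG00000037664, GRCm38 chr7:143458339-143461050), the inhibitor most associated with stem cell quiescence, was scarce, with 13 to 39 reads per library. It was measured at 1.61, 1.91 and 2.48 CPM in ND, 1.45, 2.31 and 1.37 CPM in HSD, 1.51, 2.21 and 2.50 CPM in ND ICH, and 1.37, 1.33 and 1.01 CPM in HSD ICH. The 3 HSD ICH libraries were the 3 lowest of its comparison with ND ICH, with a mean of 1.24 ± 0.195 against 2.07 ± 0.506 CPM. The log2 fold change was −0.55 ± 0.23, with an unadjusted p of 0.0386 and an adjusted p of 0.300 by limma. Counting error alone gives a coefficient of variation of 21.6% in HSD ICH, where 15.8% was observed, so the depth allows no finer statement. The lowest value again came from HSD ICH replicate 3, without which the log2 fold change was −0.46. HSD ICH libraries also lay below all HSD libraries, at a log2 fold change of −0.33 ± 0.25 with an adjusted p of 0.481 by limma. Of the 2039 exonic bases of Cdkn1c, 625 are shared with Gm44732 on the opposite strand, a gene not listed here.

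Cdkn1a (p21; ENSMUSG00000023067, GRCm38 chr17:29090976-29100727), a p53 target, had 44 to 136 reads per library and was measured at 5.46 to 9.52 CPM in ND, 4.65 to 7.54 CPM in HSD, 4.08 to 7.86 CPM in ND ICH and 3.92 to 5.33 CPM in HSD ICH. Groups overlapped in each of the 4 comparisons. Its coefficient of variation over the 12 libraries, 30.3%, was the highest of the 10 members, against 11.2% from counting error. The highest level was in ND replicate 1, a library high in macrophage markers. Cdkn1a shares 273 exonic bases with AC167363.2 on the opposite strand, a gene not listed here.

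The INK4 inhibitors showed the opposite order of diets. Cdkn2c (p18; ENSMUSG00000028551, GRCm38 chr4:109660876-109667189) was measured at 8.26, 9.14 and 9.27 CPM in ND and 11.1, 11.3 and 11.7 CPM in HSD, and after ICH at 9.60, 6.33 and 9.47 CPM in ND ICH and 11.8, 11.1 and 10.1 CPM in HSD ICH. All 6 HSD libraries, with or without ICH, lay above all 6 ND libraries. Of all genes, 7.07% without ICH and 10% after ICH had HSD libraries all above ND libraries. The share that did so over all 12 libraries together was not counted. Without ICH the means were 11.4 ± 0.329 and 8.89 ± 0.549 CPM, a 1.26-fold difference (95% interval 1.04 to 1.54) with a log2 fold change of 0.34 ± 0.13, an unadjusted p of 0.0226 and an adjusted p of 0.641 by limma. With 106 to 280 reads per library, these SDs are smaller than counting error allows for. The coefficient of variation was 2.90% in HSD and 6.18% in ND, where counting error alone gives 8.77% and 8.65%. After ICH they were 11.0 ± 0.853 and 8.47 ± 1.85 CPM, a log2 fold change of 0.38 ± 0.18 with an adjusted p of 0.346. Neither passed the threshold, and the value after ICH was 0.19 without ND ICH replicate 2. ICH itself left Cdkn2c at 0.941-fold after ND and 0.969-fold after HSD, with intervals of 0.717 to 1.24 and 0.779 to 1.20.

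Cdkn2d (p19; ENSMUSG00000096472, GRCm38 chr9:21288410-21291407) was measured at 5.67, 4.54 and 5.78 CPM in ND and 6.51, 8.24 and 6.34 CPM in HSD, and after ICH at 4.86, 4.96 and 6.02 CPM in ND ICH and 5.94, 8.06 and 5.67 CPM in HSD ICH. It had 60 to 157 reads per library. The diets separated without ICH and overlapped after it. The log2 fold change without ICH was 0.37 ± 0.18 with an adjusted p of 0.722 by limma, and 0.28 ± 0.19 after ICH with an adjusted p of 0.477. The highest value was in HSD replicate 2, the library highest in macrophage markers, and the value without ICH was 0.26 when this library was left out. The value after ICH was 0.13 without HSD ICH replicate 2.

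Since CPM depends on the scaling of a library and the share of a gene within a set does not, the INK4 share of the 5 inhibitors was also taken, a measure chosen after the values of its members were seen. Cdkn2c and Cdkn2d made up 28.7%, 28.6% and 29.1% of the summed inhibitor CPM per kb in ND and 35.1%, 39.2% and 34.2% in HSD. After ICH the share was 34.0%, 26.1% and 33.2% in ND ICH and 38.9%, 41.2% and 41.0% in HSD ICH. The HSD libraries lay above the ND libraries in both settings, by means of 36.2 ± 2.65% against 28.8 ± 0.233% and 40.4 ± 1.30% against 31.1 ± 4.34%. The share was not tested.

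The pathway around the members was followed in 40 genes of 8 lists, of which 36 were found and tested, while Cdkn2a, Cdkn2b, Ccna1 and Skp1 were not analysed here. In the diet comparisons none was called by limma, edgeR or DESeq2 (2 after ICH in 1 limma fit of all 12 libraries). By limma 4 of the 36 without ICH and 6 after ICH had an unadjusted p under 0.05, against 6.93% and 15.6% of all genes. After ICH 29 of the 36 were higher with HSD, where 45.8% of all genes and 56.1% of the 14587 genes with a mean of at least 1.75 CPM were. The median log2 fold change of the 36 was 0.11, against −0.03 over all genes and 0.036 over those 14587. Those named by the smallest p were Ccna2, the S phase cyclin, at 104 ± 5.44 against 73.6 ± 6.13 CPM (log2 fold change 0.50, adjusted p 0.222), E2f8, a repressor of the E2F family, at 102.5 ± 13.7 against 71.5 ± 1.85 CPM (0.51, adjusted p 0.241), and Cks1b, a cofactor in the degradation of p27, at 31.6 ± 6.49 against 22.1 ± 1.15 CPM (0.49, adjusted p 0.260). For each of the 3, chosen by their p, all HSD ICH libraries lay above all ND ICH libraries, as for 10% of all genes. For E2f8 and Cks1b the highest value was in HSD ICH replicate 3, at 116 and 38.9 CPM, and for Ccna2 it was there too, at 109 CPM.

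With ICH after ND, 4 of the 36 genes fell and none rose by limma, where 3.23% of all genes fell. By edgeR and DESeq2 3 were called each, with plain library totals 2, and with the filter of the study, CPM over 10 in 3 libraries, 1, which was E2f7. In all, 30 of 36 had a negative log2 fold change (25 with plain library totals), with a median of −0.14 against 0.0055 over all genes and −0.051 over the 14587 genes above. The 4 were E2f7, a repressor of the E2F family, E2f1 and E2f2, activators of S phase genes, and Rbl1, the RB relative p107. E2f7 was measured at 29.3, 29.3 and 33.6 CPM in ND and 20.8, 21.6 and 19.9 CPM in ND ICH, a log2 fold change of −0.55 ± 0.10 with an adjusted p of 0.00227 by limma. E2f2 was measured at 13.6, 14.4 and 15.6 CPM in ND and 9.99, 9.20 and 9.62 CPM in ND ICH, a log2 fold change of −0.57 ± 0.12 with an adjusted p of 0.00709. E2f1 fell by 0.57 and Rbl1 fell by 0.25 on the log2 scale, with adjusted p of 0.0420 and 0.0426 by limma. All 4, chosen by their p, were without overlap, as were 14.3% of all genes in the lower direction.

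These calls depended on the filter, the scaling and single libraries. With the filter of the study the adjusted p was 0.0549 for E2f2, 0.122 for E2f1 and 0.118 for Rbl1, and with plain library totals it was 0.0566 for E2f1 and 0.118 for Rbl1. Between 0 and 3 of the 36 genes were called when 1 of the 6 libraries was left out, and the calls over all genes numbered 264 to 2995 in place of 3245. E2f1 and Rbl1 were lost without any of the 6, with adjusted p of up to 0.130 and 0.206. E2f2 was lost without ND ICH replicate 1 or 3, with adjusted p of 0.0616 and 0.0765, and E2f7 without ND ICH replicate 3, with an adjusted p of 0.0587. All 4 kept a negative sign in these fits.

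With ICH after HSD none of the 36 was called by limma, edgeR or DESeq2 (1 with a replicate block and 2 in 1 limma fit of all 12 libraries), and the median was −0.01. By limma 2 higher and 6 lower ones had an unadjusted p under 0.05. Of all genes, 11.8% were higher and 9.73% lower at that level, 21.5% in either direction. E2f2 had a log2 fold change of −0.42 ± 0.13 (adjusted p 0.115) and E2f7 of −0.26 ± 0.10 (adjusted p 0.192) by limma. Mycn, a MYC family factor, was measured at 36.6, 37.5 and 18.1 CPM in HSD ICH and 63.1, 48.8 and 41.0 CPM in HSD, a log2 fold change of −0.77 ± 0.27 with an adjusted p of 0.139, and its lowest value was in HSD ICH replicate 3, without which the log2 fold change was −0.43. Cdk2, the kinase that follows CDK4 and CDK6, had −0.27 after ND (adjusted p 0.0544) and −0.21 after HSD (adjusted p 0.231). Whether the ICH effect on these genes differed between diets is the same contrast as the interaction, which called none of the 36 by limma, edgeR or DESeq2. By limma 3 of them had an unadjusted p under 0.05, against 8.35% of all genes, E2f8 the smallest at 0.00377 (adjusted p 0.524).

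Of the 15 genes of S phase and mitosis, all were higher with HSD after ICH, where 45.8% of all genes and 56.1% of those with a mean of at least 1.75 CPM were. Their median log2 fold change was 0.34, and 0.23 without HSD ICH replicate 3. Of the 15, 9 had an unadjusted p under 0.05, against 15.6% of all genes, and none passed the threshold by limma or edgeR, with a smallest adjusted p of 0.222 by limma, while DESeq2 called 2 and a limma fit of all 12 libraries 3. Without ICH 11 of 15 were higher, against 54.6% of all genes and 56.3% of those with a mean of at least 1.75 CPM, with a median of 0.063. By limma 5 had an unadjusted p under 0.05, all higher, against 6.93% of all genes, and none was called. Without ND replicate 1 and HSD replicate 2, 14 were higher and limma called 1, and without ND replicate 3, 8 were higher. In the interaction by limma all 15 were positive, against 45.7% of all genes. There 2 had an unadjusted p under 0.05, against 8.35% of all genes, and none was called.

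With ICH after ND 12 of the 15 were lower and 3 higher, and 5 fell at an adjusted p under 0.05 by limma, where 3.23% of all genes fell. Among the 5 were Pcna, the DNA clamp, at 109 ± 8.20 against 142 ± 11.1 CPM and Tyms, which makes thymidylate, at 39.1 ± 2.08 against 52.2 ± 1.05 CPM. The 3 higher ones, Ccnb1, Ccnb2 and Birc5, act in mitosis and did not pass the threshold. The count of 5 was 2 by edgeR, 4 by DESeq2, 1 with the filter of the study and 2 with plain library totals. With 1 library left out it was 0 without ND ICH replicate 3, 2 without ND replicate 3 and 1 without any of the other 4. With ICH after HSD 8 were higher and 7 lower, with a median of 0.032 that was −0.0019 without HSD replicate 2 and −0.078 without HSD ICH replicate 3. None was called there by limma, edgeR or DESeq2, and a limma fit of all 12 libraries called 1. By limma 2 of the higher ones reached an unadjusted p under 0.05, where 11.8% of all genes did in that direction. The summed level of the 15 genes was 2816 to 2984 CPM in ND ICH, 3333 to 3996 CPM in HSD ICH, 3122 to 3407 CPM in ND and 3360 to 3636 CPM in HSD. The highest sum was that of HSD ICH replicate 3. In the same libraries the D cyclins and Cdk6 overlapped between the diets. Cdk4 overlapped without ICH, while after ICH its HSD libraries all lay above its ND libraries.

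**Figure D4:**
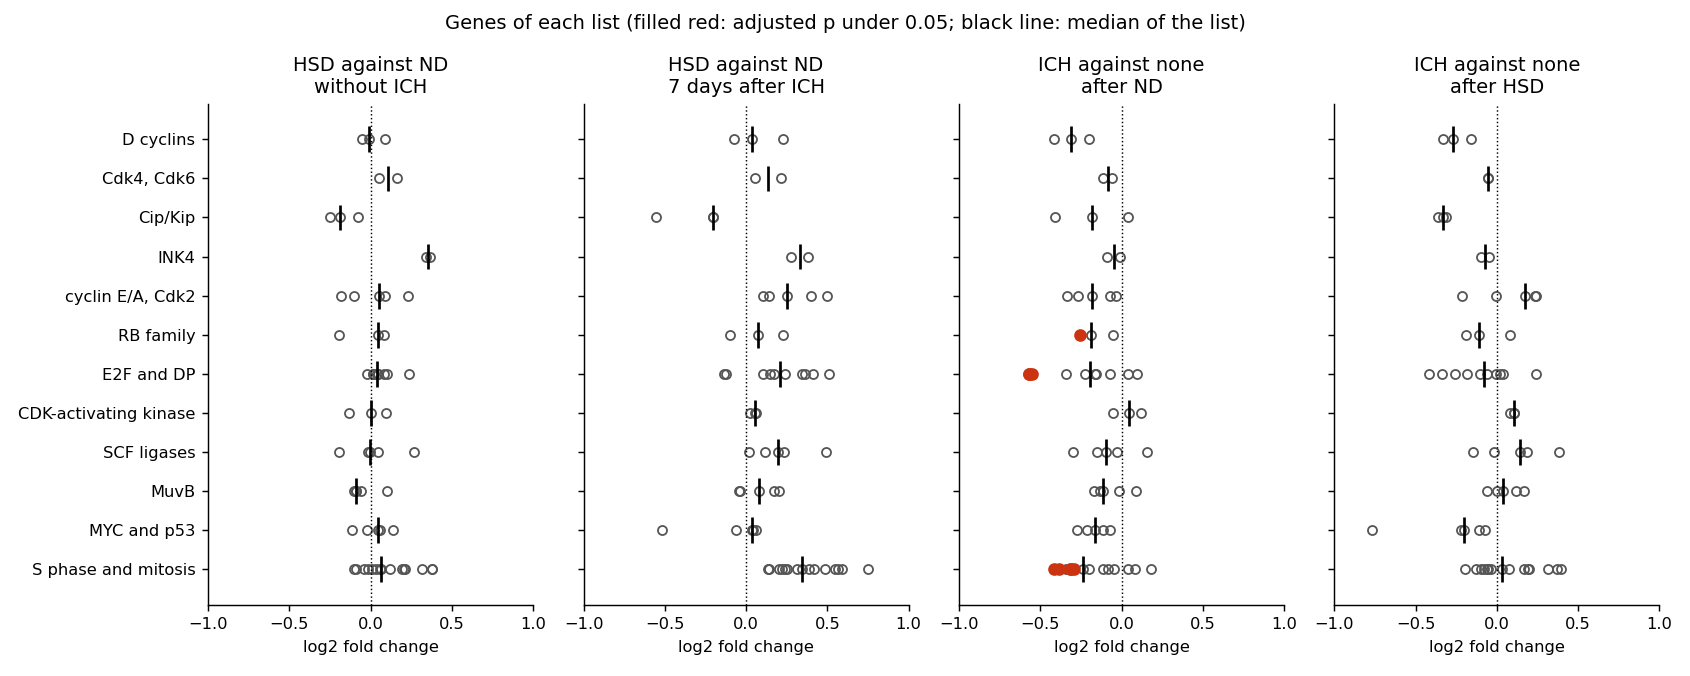
Log2 fold change of each gene of the member lists, the pathway lists and the S phase and mitosis list in 4 comparisons, 1 circle per gene, with filled red circles for adjusted p under 0.05 and a black line at the median of each list. Filled circles occur only for ICH after ND, at E2f1, E2f2, E2f7, Rbl1 and 5 genes of S phase and mitosis, all below 0.

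Genes whose levels followed a member most closely over the 12 libraries were found by the root mean squared difference of centred log2(CPM + 0.5) among 20392 other genes, for the 4 members with the smallest p. For Ccnd3 they were Flcn, Extl3 and Prss53, with differences of 0.0742 to 0.0878 where Ccnd3 itself had an SD of 0.21. For Cdkn2c they were Gorasp1, Reep4 and Pde12, the closest at 0.0861, with an SD of 0.23. For Cdkn1b they were Vezf1, Ttc3 and Ogt, at 0.0774 to 0.0821 with an SD of 0.19. For Ccnd1 they were Gm10390, Agap3 and Zscan25, at 0.156 to 0.160 with an SD of 0.32, so no gene followed Ccnd1 as closely as others followed Ccnd3. No member was among the 3 nearest genes of another.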

How the data were processed

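HSPC libraries were prepared with the SMART-Seq Stranded Kit. Alignment to mm10 used Rsubread, reads were counted per gene with featureCounts, and the deposited files hold CPM scaled by the authors with TMM in edgeR 3.24.3. Genes under the expression filter of the study (CPM over 10 in 3 samples) are still in the files. All values were whole multiples of 1 read to within 0.01 read, which gave reads per gene; in HSD replicate 2 the step of 0.10 CPM lies too near a round decimal for this to be sure.

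Groups and replicate numbers follow the labels. Genes that reached 10 reads in 3 or more fitted libraries were compared by limma 3.58.1 (R 4.3.3) with a variance trend on log2(CPM + 0.5), in 4 fits of 6 libraries and, for the interaction, 1 fit of 12, with Benjamini-Hochberg adjustment over all genes tested; the fold change of scarce genes is understated on this scale. A gene was called at an adjusted p under 0.05, fold changes are 2 to the power of the fitted difference, and intervals are at 95%. The test was run on simulated data, with changes larger than those of the members. That run gives no measure of power for changes as small as theirs. Alternatives were edgeR 4.0.16, DESeq2 1.42.0, pseudocounts of 0.1 and 1, other filters and scalings, a replicate block, 1 fit of 12 libraries, and leaving out libraries. Levels per kb divide CPM by the union of GENCODE M21 exons on GRCm38, and counting error is the Poisson error of the reads. Same-numbered libraries had correlations of −0.191 to 0.0794 after group means were removed, so numbers were not treated as pairs.

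The members, lists and left-out libraries were chosen with earlier results of these data known. Text names all members, pathway genes that passed the threshold, up to 3 per list with the smallest p (not every one is given values), and the nearest genes of 4 members; Pcna, Tyms, Ccnb1, Ccnb2 and Birc5 were named after their values were seen. The p-values rest on the spread between libraries. For limma this spread, and the SE taken from it, is drawn for each gene towards the variance trend over all genes.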

Additional observations from a re-analysis of the deposited data

How the results depend on the processing

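Of 924 member values under alternatives, 859 kept their direction and side of the threshold, 63 changed sign and 2 gained a call. The 2 were Ccnd1 and Ccnd3 after ICH on ND with the replicate block, with adjusted p of 0.0440 and 0.0366 by limma; the numbers do not pair the libraries, and the block gave no other member call. No other alternative called a member. Main values of those that changed sign outside single left-out libraries were at most 0.10 in size (log2). For HSD against ND without ICH, Ccnd1 was −0.12 and Ccnd2 0.031 without ND replicate 1 and HSD replicate 2. Without these 2 libraries, the difference of the diet effects was 0.054 for Ccnd3, −0.013 for Cdk4 and −0.039 for Cdk6. ICH on ND holds only ND replicate 1 of the 2, and without it gave −0.077 for Cdkn1c and 0.034 for Cdkn2d. ICH on HSD holds only HSD replicate 2, and without it gave 0.012 for Cdkn2d. In these ICH comparisons, leaving out both repeats a fit with 1 library left out, and the counts above include such repeats. Plain library totals gave −0.0088 for Ccnd2 between diets after ICH, 0.044 for Cdkn2d with ICH on ND and −0.038 for Cdk6 in the difference of the diet effects. Cdkn2d with ICH on ND was 5.77e-05 by DESeq2 and 0.0035 with RLE scaling, and Ccnd3 in the difference of the diet effects was 0.0068 by edgeR and 0.0018 by DESeq2.

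With 1 library left out, 48 values changed sign, and the log2 fold changes of those members spanned 0. Between diets without ICH they ran from −0.12 to 0.24 for Ccnd1, from −0.046 to 0.042 for Ccnd2, from −0.11 to 0.0049 for Ccnd3, from −0.15 to 0.0065 for Cdkn1b. Between diets after ICH they ran from −0.077 to 0.14 for Ccnd2, from −0.22 to 0.022 for Ccnd3, from −0.053 to 0.12 for Cdk6, from −0.37 to 0.069 for Cdkn1a. With ICH on ND they ran from −0.12 to 0.046 for Cdk6, from −0.082 to 0.20 for Cdkn1c, from −0.18 to 0.098 for Cdkn2c, from −0.11 to 0.047 for Cdkn2d. With ICH on HSD they ran from −0.096 to 0.011 for Cdkn2c, from −0.25 to 0.012 for Cdkn2d. In the difference of the diet effects they ran from −0.057 to 0.35 for Ccnd1, from −0.067 to 0.15 for Ccnd2, from −0.16 to 0.075 for Ccnd3, from −0.013 to 0.14 for Cdk4, from −0.10 to 0.065 for Cdk6, from −0.15 to 0.32 for Cdkn1a, from −0.14 to 0.14 for Cdkn2c, from −0.24 to 0.022 for Cdkn2d.

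Calls over all genes by limma moved more than those of the members. Between diets without ICH there were 13, against 8 without a filter, 65 by DESeq2, 1 in the fit of 12 libraries, 91 without ND replicate 1 and HSD replicate 2, and 8 to 22 with 1 library left out. Between diets after ICH there were 0, against 98 by DESeq2 and 297 in the fit of 12. With ICH on ND there were 3245, against 116 with the stated filter and 264 to 2995 with 1 library left out. With ICH on HSD there were 1189, against 2384 without a filter, 44 with the stated filter and 3544 in the fit of 12. With 1 library left out there were 56 to 671, with 671 without HSD replicate 2. The cause was not tested. With 3 libraries per group, depth limits Cdkn1c most, at 13 to 39 reads.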

Other observations

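ND ICH replicate 2 held the lowest level of the 12 libraries for 5 of the 10 members, Ccnd1, Ccnd2, Cdk4, Cdk6 and Cdkn2c, and ND replicate 1 held the highest for Ccnd2, Cdk6 and Cdkn1a. The summed CPM per kb of the 3 D cyclins was 0.468 to 0.553 times that of the 2 kinases in ND, 0.430 to 0.488 times in HSD, 0.411 to 0.496 times in ND ICH and 0.353 to 0.485 times in HSD ICH, and the ranges of all groups overlapped. The summed kinases were 2.55 to 3.16 times the summed inhibitors in ND, 2.99 to 3.10 times in HSD, 2.74 to 3.42 times in ND ICH and 3.11 to 4.03 times in HSD ICH, with the highest ratio in HSD ICH replicate 3, the library low in HSPC markers. These sums were chosen after the values of the members were seen and were not tested.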
